A study of Mus musculus with 10 samples.

Results

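The genes described here are the MYC, MAX and MXD network, a family of transcription factors that pair through a basic helix-loop-helix leucine zipper. They were measured in 4T1, a mouse line grown from a mammary carcinoma. The members were the 10 genes Myc, Mycn, Mycl, Max, Mnt, Mxi1, Mxd1, Mxd3, Mxd4 and Mga. A member was taken from the array row whose platform annotation named that gene alone, and 9 of the 10 were found in this way. Each of the 9 had a single row and lay above the signal floor, so they are 9 of the 17800 genes tested. The row of Mycl also carried its older symbol Mycl1, a synonym of the same gene ID, so Mycl is reported from a fit in which such rows count as 1 gene, a choice made after the annotation was seen.

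The high-density group (HD) was 5 samples of 4T1 cells in gels of 3.5 mg collagen per mL, and the low-density group (LD) was 5 samples in gels of 2 mg per mL. Each culture began with 50000 cells and was kept for 5 days, and both groups shared the line, the medium and the serum. One array was run per sample, and all values are log2 signals that the authors made with RMA (robust multi-array averaging). Whether the 5 samples of a group were grown as separate cultures is not stated, so each p-value reflects the variation among the arrays at hand, possibly technical in origin, and the number of arrays limits the precision. The comparison asks how a denser collagen matrix alters gene expression in carcinoma cells that are otherwise the same.

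MYC proteins act on DNA as pairs with MAX, bind the E-box CACGTG and recruit histone acetyltransferases to activate genes of growth and division. The MXD proteins (MXD1, MXI1, MXD3 and MXD4) and MNT pair with the same MAX at the same sites and recruit the SIN3 and histone deacetylase corepressor, so that they oppose MYC, while MGA brings MAX into a Polycomb repressor complex. MYC is a frequent driver of mammary carcinoma, and the MXD genes are known for their rise in cells that stop dividing and differentiate. Mxi1 is also a known target of the hypoxia-inducible factors, whose binding sites include the core ACGTG.

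The arrays matched the labelled cell type, with all 6 epithelial markers (Epcam, Cdh1, Krt7, Krt8, Krt18 and Krt19) above the signal floor (a mean over arrays of 5.24, the median of all rows) at mean log2 signals of 8.96 to 12.2 in HD and 9.72 to 12.3 in LD. Of these, 4 fell (66.7%, against 19.5% lower of all genes tested) and none rose, among them Krt19 (-0.76), Epcam (-0.60) and Krt18 (-0.13). After a scaling on control rows, described with Myc, all 6 were lower, with Krt18 at -0.447, Krt8 at -0.267 and Krt7 at -0.241. The median log2 change of the 6 was then -0.36 in place of -0.12. That scaling by its construction lowers bright genes, such as these markers, in HD relative to LD. Over all genes tested 3396 of 17800 were lower after it. Of 7 markers of other cell types, 5 lay below the floor, including Ptprc and Pecam1. Cd68, a lysosomal gene used as a macrophage marker, was 7.83 in HD and 8.57 in LD (log2 change -0.74), and Col1a1 was 6.80 in HD and 6.71 in LD. The part of these markers in the results was not tested. The arrays correlated with each other at 0.9961 or more within a group and at no more than 0.9932 between groups (across genes, which are not independent replicates), and no 2 arrays held identical values.

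Promoter windows of RefSeq (build GRCm38.p6), running from 250 bases before to 50 after a transcription start, were given for 9 of the 10 genes and were searched on both strands for CACGTG, the site at which these proteins bind, and for the shorter ACGTG, which every CACGTG contains. Myc was the gene without a window, so it was not searched. Max, Mxd4 and Mnt held CACGTG in their windows, against 8.09% of all 27025 genes with a window. An ACGTG outside CACGTG stood in the windows of Mxi1 and Mga, so that 5 of the 9 genes held ACGTG in some setting, against 21.8% of all genes. Mxi1 had 3 windows, of which 2 held ACGTG. The stretches that hold the network's own binding site, and one of the 2 of Mxi1, the gene that changed most, are shown with those letters in capitals. No other sequence was searched for. A match of letters is a description and not a site of binding.
Mxi1, chr19:53329163-53329412, plus strand: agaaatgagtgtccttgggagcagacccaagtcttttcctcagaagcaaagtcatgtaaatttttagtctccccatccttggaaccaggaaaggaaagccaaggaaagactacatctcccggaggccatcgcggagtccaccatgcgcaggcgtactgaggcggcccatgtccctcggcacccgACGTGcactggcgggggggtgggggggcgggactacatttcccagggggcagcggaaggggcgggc
Mxd4, chr5:34187711-34187960, minus strand: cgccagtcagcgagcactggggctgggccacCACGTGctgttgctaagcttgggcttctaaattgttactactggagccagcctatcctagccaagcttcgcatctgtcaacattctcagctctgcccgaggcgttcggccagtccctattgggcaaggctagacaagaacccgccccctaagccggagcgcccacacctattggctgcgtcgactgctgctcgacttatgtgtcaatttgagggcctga
Mnt, chr11:74830674-74830923, plus strand: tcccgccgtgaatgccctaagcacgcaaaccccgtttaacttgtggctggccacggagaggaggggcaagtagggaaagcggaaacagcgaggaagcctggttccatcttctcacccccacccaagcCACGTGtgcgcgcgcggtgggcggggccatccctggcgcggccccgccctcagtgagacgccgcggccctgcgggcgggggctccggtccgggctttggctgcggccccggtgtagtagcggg
Max, chr12:76962246-76962498, minus strand: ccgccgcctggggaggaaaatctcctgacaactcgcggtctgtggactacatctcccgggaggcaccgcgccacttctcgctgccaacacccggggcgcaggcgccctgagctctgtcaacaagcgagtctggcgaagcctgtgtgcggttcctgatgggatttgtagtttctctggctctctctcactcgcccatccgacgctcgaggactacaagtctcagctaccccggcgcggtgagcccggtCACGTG
The capitals began 66 bases before the start in Mxi1, 219 before it in Mxd4, 123 before it in Mnt and 3 before it in Max. Mxi1 and Mxd4 were lower in HD, Max was higher on the deposited values and Mnt did not pass the test, as described next.

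The network did not move as a block between HD and LD. Of the 9 members tested with all genes, 4 were lower in HD (Mxi1, Mxd4, Mxd1 and Mga), 2 were higher (Myc and Max), and Mycn, Mxd3 and Mnt did not pass the test (limma, Benjamini-Hochberg adjusted over all genes, threshold 0.05). Across all genes tested, 19.5% were lower, 31.4% were higher and 50.9% changed in either direction, so a call in itself is common in this comparison. The median log2 change was -0.05 over the 9 members and 0.055 over all genes tested. The 5 HD values lay wholly below the 5 LD values for Mxi1, Mxd4, Mxd1 and Mga and wholly above them for Myc and Max. Across all genes tested the HD values lay wholly below in 15.1%, wholly above in 21.6% and in either way apart in 36.7%. Among the 9 members Mxi1 alone changed by at least 1.5-fold, downwards, as did 1.56% of all genes tested, with 2.34% doing so in either direction. RNA was taken from whole gels, so fewer cells expressing a gene and less of its RNA per cell cannot be told apart.

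**Figure D1:**
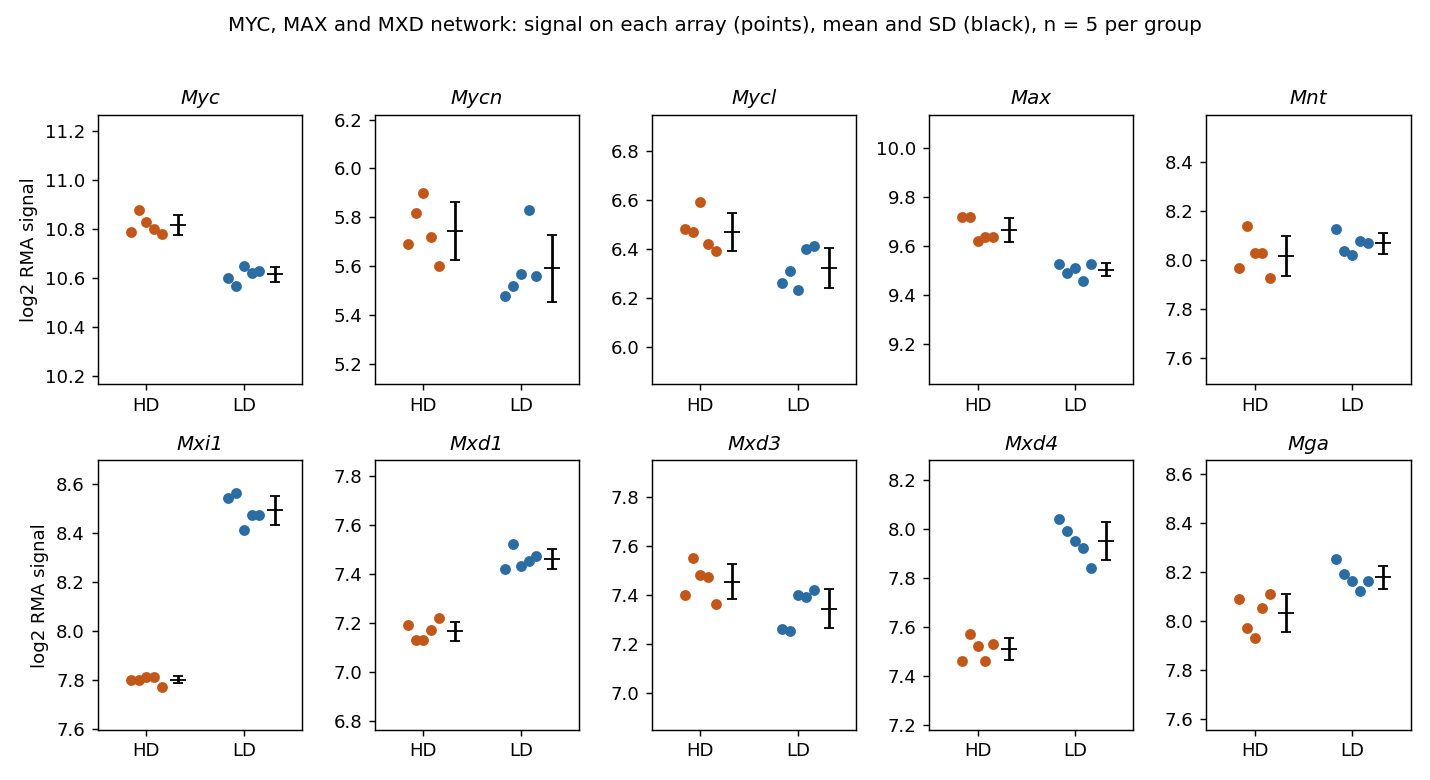
Log2 RMA signal of the 10 network genes on each array, with HD left of LD in each panel; points are arrays (n = 5 per group), and the black mark with its bar is the mean and SD. The vertical axes span the same range of log2 units, and the groups are furthest apart in Mxi1, where the HD arrays lay at 7.77 to 7.81 and the LD arrays at 8.41 to 8.56.

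Myc, the transcriptional activator at the centre of the network, was slightly higher in HD on the deposited values. Its log2 signals were 10.79, 10.88, 10.83, 10.80 and 10.78 in HD, against 10.60, 10.57, 10.65, 10.62 and 10.63 in LD. Every HD array exceeded every LD array, by at least 0.13, a gap wider than the range inside either group. The means were 10.82 ± 0.0393 in HD and 10.62 ± 0.0295 in LD (SD, n = 5 each), which is 1.15-fold (0.20 ± 0.0338 SE on the log2 scale, adjusted p = 2.2e-04 by limma). Of all genes tested, 28.2% changed by at least this much in one direction or the other. The rise was not independent of the scaling of the arrays. When each array was scaled linearly on the medians of its negative and positive control rows, the log2 change of Myc was 0.011 (limma adjusted p = 0.82).

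Max, the partner that MYC and MXD proteins share, showed the same pattern at a smaller size. Its log2 signals were 9.72, 9.72, 9.62, 9.64 and 9.64 in HD, against 9.53, 9.49, 9.51, 9.46 and 9.53 in LD. The groups were apart by 0.09. HD exceeded LD by 1.12-fold (0.16 ± 0.0348 SE on the log2 scale, adjusted p = 0.0015 by limma). The call was also lost under the scaling on control rows, with a log2 change of 0.069 (limma adjusted p = 0.12).

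Some classes of control rows differed between the groups, not all in one direction. Negative control rows had a median signal of 5.42 ± 0.124 in HD and 5.67 ± 0.0516 in LD, and positive control rows one of 9.28 ± 0.0448 in HD and 9.21 ± 0.0111 in LD (SD, n = 5 each; two-sided exact permutation p = 0.0079 for both, the smallest that 5 against 5 arrays can give). Background control rows ran opposite to the negative ones, at 3.63 ± 0.0574 in HD and 3.47 ± 0.055 in LD (two-sided exact permutation p = 0.0079, n = 5 each). The ERCC spike-in rows, at 4.52 ± 0.0878 in HD and 4.44 ± 0.0485 in LD, did not pass the test (two-sided exact permutation p = 0.11, n = 5 each). The scaling used the negative and positive rows alone. It moved the median log2 change of all genes tested to 0.133 from 0.055 and the share of higher genes among the calls to 72.1%, against 61.7% on the deposited values; quantile normalization also gave 72.1%. By its construction it lowers bright genes and raises dim genes in HD relative to LD. Which of the scalings is nearer to the RNA in the gels was not tested.

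Mycn and Mycl, the 2 other MYC genes, were dim. Mycn, known best from neural tumours, had log2 signals of 5.69, 5.82, 5.90, 5.72 and 5.60 in HD, against 5.48, 5.52, 5.57, 5.83 and 5.56 in LD. The medians over negative control rows were 5.26 to 5.58 on the HD arrays and 5.61 to 5.75 on the LD arrays. Mycn thus lay slightly above them in HD, and below them in LD except on replicate 4. The negative control rows were themselves lower in HD (mean of the medians 5.42, against 5.67 in LD), so this crossing does not rest on Mycn alone. Its groups overlapped. The log2 change was 0.15 (95% interval 0.0056 to 0.30, limma adjusted p = 0.076), and without LD replicate 4 it was 0.212 (limma adjusted p = 0.0079). The call also appeared without HD replicate 5 (0.189, limma adjusted p = 0.040), after quantile normalization (0.197, limma adjusted p = 0.026) and after scaling on control rows (0.390, limma adjusted p = 0.0043).

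Mycl, first found in lung cancer, had log2 signals of 6.48, 6.47, 6.59, 6.42 and 6.39 in HD, against 6.26, 6.31, 6.23, 6.40 and 6.41 in LD. The groups overlapped narrowly, since HD replicate 5 lay below LD replicates 4 and 5. The log2 change was 0.15 ± 0.0486 SE (limma adjusted p = 0.023). The call was lost with the replicate number as a block (limma adjusted p = 0.052) and without HD replicate 3, LD replicate 1 or LD replicate 3 (log2 changes of 0.116, 0.130 and 0.124, limma adjusted p = 0.055, 0.058 and 0.060).

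Among the antagonists of MYC, Mxi1 fell most. MXI1 is a MAX-dependent repressor of the MXD group. The arrays read 7.80, 7.80, 7.81, 7.81 and 7.77 in HD, against 8.54, 8.56, 8.41, 8.47 and 8.47 in LD. The HD arrays were nearly identical to each other, and the gap to the lowest LD array was 0.60. The means were 7.80 ± 0.0148 in HD and 8.49 ± 0.0597 in LD (SD, n = 5 each), so that LD exceeded HD by 1.61-fold (-0.69 ± 0.036 SE on the log2 scale, adjusted p = 1.4e-08 by limma). Among all genes with a negative change, 176 changed by this much or more, Mxi1 included, and 1.31% of all genes tested did so in either direction.

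Mxd4, another MXD repressor, came next. It read 7.46, 7.57, 7.52, 7.46 and 7.53 in HD, against 8.04, 7.99, 7.95, 7.92 and 7.84 in LD. No HD array reached the lowest LD array, from which the highest was 0.27 apart. The fall was 1.36-fold (-0.44 ± 0.042 SE on the log2 scale, adjusted p = 1.8e-06 by limma).

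Mxd1, the first MXD protein described and one that is induced as cells differentiate, was 1.23-fold lower. The arrays read 7.19, 7.13, 7.13, 7.17 and 7.22 in HD, against 7.42, 7.52, 7.43, 7.45 and 7.47 in LD. The groups were separated by 0.20, a gap wider than the range inside either group (-0.29 ± 0.0351 SE on the log2 scale, adjusted p = 1.2e-05 by limma).

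Mxd3 ran the other way from the rest of its group, without passing the test. MXD3 differs from the other MXD proteins in that it is expressed in proliferating cells, during S phase. It read 7.40, 7.55, 7.48, 7.47 and 7.36 in HD, against 7.26, 7.25, 7.40, 7.39 and 7.42 in LD. The groups overlapped (log2 change 0.11, 95% interval 0.0088 to 0.21, limma adjusted p = 0.065). Mxd3 passed the threshold as higher after quantile normalization (0.187, limma adjusted p = 0.0072), after scaling on control rows (0.200, limma adjusted p = 0.011), with the stricter filter on dim rows (limma adjusted p = 0.047), and without HD replicate 5 or LD replicate 5 (limma adjusted p = 0.039 and 0.048).

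Mnt, the broadly expressed MAX partner that represses MYC targets in growing cells, was not separated by density. Its log2 signals were 7.97, 8.14, 8.03, 8.03 and 7.93 in HD, against 8.13, 8.04, 8.02, 8.08 and 8.07 in LD. The log2 change of -0.05 had a 95% interval of -0.14 to 0.04 (limma adjusted p = 0.32). After quantile normalization the value was 0.001.

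Mga, a large protein with both a T-box and a MAX-pairing domain, was lower by a small margin. The arrays read 8.09, 7.97, 7.93, 8.05 and 8.11 in HD, against 8.25, 8.19, 8.16, 8.12 and 8.16 in LD. The highest HD array and the lowest LD array were 0.01 apart, so the groups touched without overlapping. The fall was 1.11-fold (-0.15 ± 0.0424 SE on the log2 scale, adjusted p = 0.011 by limma).

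The falls of Mxi1, Mxd4, Mxd1 and Mga kept their calls under both other scalings. After scaling on control rows their log2 changes were -0.665, -0.382, -0.195 and -0.113, and after quantile normalization -0.659, -0.379, -0.212 and -0.094. Under the scaling on control rows the count of higher members was again 2 of 9. They were Mycn and Mxd3 in place of Myc and Max. That scaling by its construction raises dim genes and lowers bright genes in HD relative to LD. The exchange is therefore not independent of signal level. After quantile normalization Mycn, Mxd3, Myc and Max were all called higher. Over all genes tested 8785 of 17800 were higher after scaling on control rows and 7634 after quantile normalization, against 5589 on the deposited values.

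**Figure D2:**
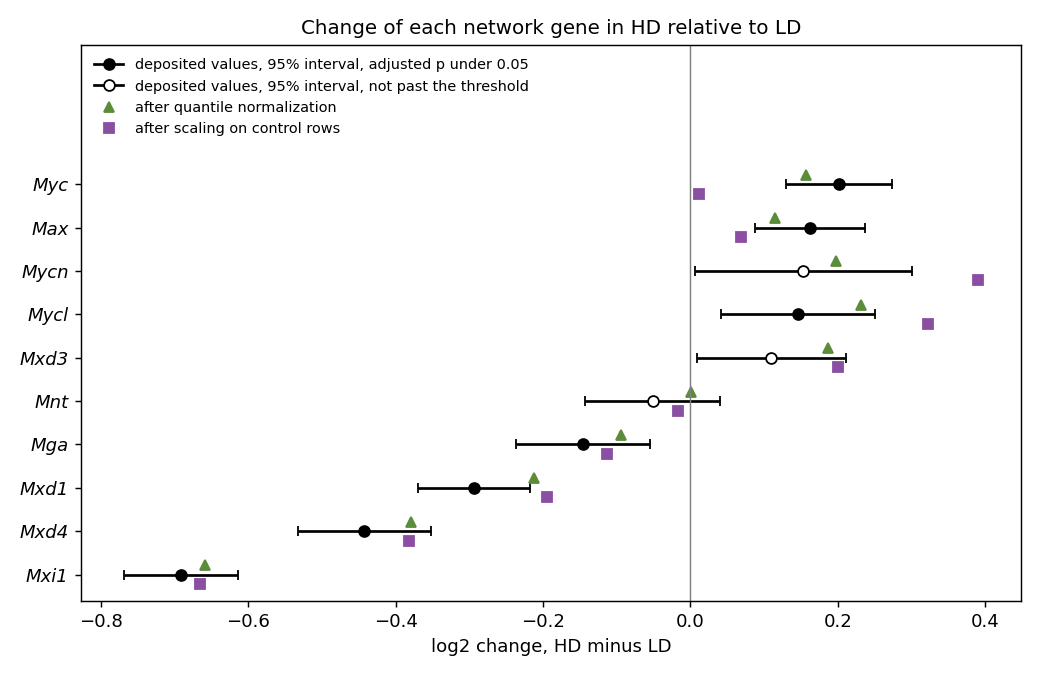
Log2 change (HD minus LD) of each network gene with its 95% interval from limma (circles, filled where the adjusted p was under 0.05), and the same change after quantile normalization (triangles) and after scaling on control rows (squares). The 4 lowest genes stay below 0 under all 3 scalings, while Myc lies at 0.20 on the deposited values and at 0.011 after scaling on control rows.

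Ordered by their change on the deposited values from lowest to highest, the members ran Mxi1, Mxd4, Mxd1, Mga, Mnt, Mxd3, Mycl, Mycn, Max and Myc. The upper end of this order did not hold after scaling on control rows, which by its construction raises dim genes and lowers bright ones in HD. There Mycn (0.390) and Mycl (0.322) were highest, and Max (0.069) and Myc (0.011) lay below Mxd3 (0.200). The within-array difference between 2 neighbours in this order shows whether their changes differed by more than the spread. For Mxi1 and Mxd4 it was 0.24 to 0.35 on the HD arrays and 0.46 to 0.63 on the LD arrays, so Mxi1 fell by more than Mxd4 with no overlap between the groups. Mnt and Mxd3 were also apart, at 0.54 to 0.59 on the HD arrays and 0.63 to 0.87 on the LD arrays. The differences of the other 7 neighbouring pairs overlapped between the groups, among them Max and Myc. The pairs were formed by ordering these same changes. How often other pairs of genes are apart in this way was not tested, so the counts are a description. The differences are given for their change between groups alone, since signals of 2 rows on an array are not comparable as levels.

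The genes whose profiles over the 10 arrays were closest to Mxi1 were Egln1, Pnrc1 and Bnip3l. Likeness was the root-mean-square distance between profiles centred on their own means, which was 0.0251, 0.0367 and 0.0521 log2 units for these 3 genes and had a median of 0.383 over all other genes tested. Egln1, the oxygen-sensing prolyl hydroxylase that marks HIF for degradation, fell by 0.675, Pnrc1, a nuclear receptor coactivator, fell by 0.655 and Bnip3l, a mitophagy receptor, fell by 0.641 on the log2 scale. The genes closest to Mxd4 were Dtx4, a ubiquitin ligase of the Deltex family (distance 0.0311, log2 change -0.403), Qsox1, a sulfhydryl oxidase (0.0386, -0.479), and Tcea3, an elongation factor of RNA polymerase II (0.0394, -0.406). The distance rests on the same 10 arrays and mostly on the difference between the groups, so it is a description.

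Genes that MYC is known to activate were mostly higher in HD. Of 31 tested of 35 listed, 27 rose and 1 fell, a share of 87.1% higher against 31.4% of all genes tested, with a median log2 change of 0.39 against 0.055. The list holds many ribosome assembly genes and was drawn up with earlier results of these arrays known, so its direction is not independent evidence. The 3 largest rises were in Srm, spermidine synthase (0.72 ± 0.0555 SE, limma adjusted p = 3.2e-07), Bop1, a ribosome assembly factor (0.71 ± 0.0547 SE, limma adjusted p = 3.1e-07) and Nme1, a nucleoside diphosphate kinase (0.71 ± 0.0492 SE, limma adjusted p = 1.5e-07). Srm had signals of 9.90 to 10.17 in HD and 9.22 to 9.45 in LD. Nme1 had signals of 9.33 to 9.50 in HD and 8.64 to 8.88 in LD, so the groups of both genes stood well apart. A further 3 classical E-box targets, named after their values were seen, rose by less: Odc1, ornithine decarboxylase, by 0.34, Cad, which starts pyrimidine synthesis, by 0.53, and the cyclin Ccnd2 by 0.51. After scaling on control rows Odc1 was at 0.108 (limma adjusted p = 0.045), while Cad was at 0.522 and Ccnd2 at 0.506.

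The member of that list that fell was Tert, the catalytic subunit of telomerase, at 6.67 to 6.82 in HD and 7.01 to 7.22 in LD (log2 change -0.37 ± 0.0512 SE). The kinase Cdk4, the nucleolar protein Npm1 and the translation initiation helicase Eif4a1 did not pass the test, at -0.06, 0.04 and 0.02. After scaling on control rows 26 members were higher and 4 lower (median 0.28, against 0.133 for all genes tested). Over all genes tested 8785 of 17800 were higher after that scaling and 3396 were lower. The lower members of the list were Tert (-0.239), Cdk4, Npm1 and Eif4a1. Unlike Myc, the genes Srm, Bop1 and Nme1 kept their calls there, at 0.615, 0.706 and 0.656.

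**Figure D3:**
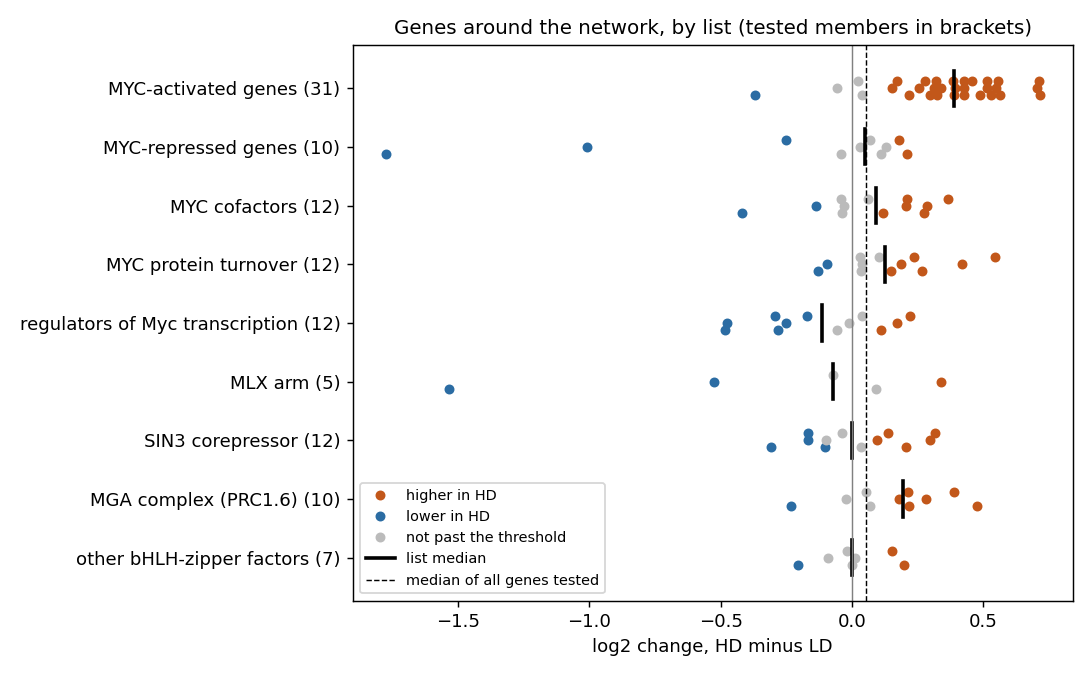
Log2 change (HD minus LD) of every tested gene in 9 lists around the network; points are genes coloured by their call, black bars are list medians and the dashed line is the median of all genes tested. The MYC-activated genes have their median at 0.39, while the MYC-repressed genes spread from -1.77 to 0.21 around a median of 0.05.

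Genes that MYC is known to repress did not move as a block. Of 10 tested of 11 listed, 3 fell (30%), 2 rose (20%) and 5 did not pass the test, against 31.4% higher and 19.5% lower over all genes tested, with a median log2 change of 0.05. The count of higher genes was 4 after quantile normalization, after scaling on control rows, with array weights, with the replicate block and without LD replicate 4. It was 1 with the stricter filter on dim rows. The calls gained after quantile normalization were those of 2 dim genes, Col1a2 (6.06 in HD, 5.93 in LD) and Pdgfrb (5.55 in HD, 5.44 in LD). After scaling on control rows Cdkn1c, also dim (6.04 in HD, 5.97 in LD), was gained as well, and Fth1 was not called. Over all genes tested, 5589 of 17800 were higher on the deposited values, 7634 after quantile normalization and 8785 after scaling on control rows. Array weights gave 5962, the replicate block 5654 and leaving out LD replicate 4 gave 5582. The stricter filter left 10907 genes, of which 4201 were higher. The falls were in Ndrg1, a differentiation gene that hypoxia also induces (-1.77 ± 0.054 SE, limma adjusted p = 5.1e-11), Gadd45a, a growth arrest gene (-1.01 ± 0.0768 SE), and Cdkn1b, the cell cycle inhibitor p27 (-0.25 ± 0.053 SE). The rises were in Cdkn2b, a cell cycle inhibitor (0.18, and 0.364 after scaling on control rows), and Fth1, the ferritin heavy chain (0.21), whose change was -0.114 after scaling on control rows. Cdkn1a, the inhibitor p21, had a log2 change of 0.03.

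Of 12 cofactors of MYC tested, 6 rose (50%) and 2 fell (16.7%), against 31.4% higher and 19.5% lower over all genes tested (median 0.09). After scaling on control rows 5 were higher and 3 lower, while 8785 of all 17800 genes tested were higher and 3396 lower. Actl6a, an actin-like subunit of chromatin remodelling and acetyltransferase complexes, rose by 0.36 ± 0.041 SE and Wdr5, which helps MYC onto chromatin, by 0.29 ± 0.04 SE. The 2 that fell were Pim1, a kinase that cooperates with MYC (-0.42 ± 0.0453 SE), and Trrap, the scaffold of the acetyltransferase complexes (-0.14 ± 0.0419 SE, and -0.225 after scaling on control rows). In the list of MYC protein turnover, 6 of 12 tested rose (50%) and 2 fell (16.7%), the same shares as for the cofactors (median 0.13). After scaling on control rows 7 of this list were higher and 1 lower. Usp36, a nucleolar enzyme that removes ubiquitin from MYC, rose by 0.55 ± 0.0493 SE, Cip2a, which protects MYC from a phosphatase, by 0.42 ± 0.0574 SE, and the kinase Gsk3a by 0.27 ± 0.0447 SE. Gsk3b, which marks MYC for destruction, fell by 0.13, and Usp28, another deubiquitinase, fell by 0.097 and lost its call under both other scalings (limma adjusted p = 0.13 after quantile normalization and 0.083 after scaling on control rows). Under the scaling on control rows Gsk3a was at 0.132 and Gsk3b at -0.204, both still called. Fbxw7, the ubiquitin ligase receptor for MYC, differed by 0.03 without a call, but passed the threshold as higher after quantile normalization (0.118) and scaling on control rows (0.143). Protein levels were not measured.

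Of 12 genes tested that act on Myc transcription, 3 rose (25%) and 6 fell (50%), against 31.4% higher and 19.5% lower over all genes tested (median -0.11). Lef1, a transcription factor of the Wnt pathway, fell by 0.48 ± 0.0504 SE, and Smad3, a TGF-beta effector that represses Myc, fell by 0.48 ± 0.0397 SE. Pvt1, the noncoding RNA gene beside Myc, fell by 0.29 ± 0.0614 SE while Myc itself was higher on the deposited values; its groups overlapped slightly, at 7.56 to 7.83 in HD and 7.82 to 8.09 in LD. The rises were E2f1 (0.22), Puf60, a repressor of Myc (0.17), and the insulator protein Ctcf (0.11). Puf60 and Ctcf lost their calls after scaling on control rows (0.086 and 0.013, limma adjusted p = 0.072 and 0.80), and Ctcf also after quantile normalization (0.060, limma adjusted p = 0.16).

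Of 12 genes tested of the SIN3 complex, the corepressor that the MXD proteins recruit, 5 rose (41.7%) and 4 fell (33.3%), against 31.4% higher and 19.5% lower over all genes tested (median -0.001). After scaling on control rows 3 were higher, and with median centring or with no filter on dim rows 2 were lower. Over all genes tested 8785 of 17800 were higher after scaling on control rows. Those lower over all genes were 3273 of 17800 with median centring and 3401 of 30142 with no filter on dim rows. The deacetylases Hdac1 and Hdac2 rose by 0.32 ± 0.0373 SE and 0.30 ± 0.0519 SE. Hdac1 had 2 rows, whose names point to different chromosomes, and the brighter was used (11.07 in HD, 10.75 in LD). The dimmer one differed by 0.25 (9.35 in HD, 9.1 in LD). The name of the dimmer row points to chromosome 4, and that of the brighter row to another chromosome. Which of them reads Hdac1 itself was not tested, so the values of the brighter row may not be those of the gene's own locus. After scaling on control rows the brighter row of Hdac1 was at 0.112 and Hdac2 at 0.177 (limma adjusted p = 0.049 and 0.021). The histone-binding subunit Rbbp7 was at 0.001 after that scaling, against 0.205 on the deposited values. The falls were in the accessory subunits Arid4b (-0.31 ± 0.0509 SE), Arid4a (-0.17) and Sap30 (-0.17) and in the scaffold Sin3b (-0.10). Sap30 lost its call under both other scalings (limma adjusted p = 0.12 and 0.094), and the calls of Sap30 and Sin3b were also lost when single arrays of either group were left out (largest limma adjusted p = 0.11 and 0.12). In the Polycomb complex around MGA, 6 of 10 tested genes rose (60%) and 1 fell (10%), against 31.4% higher and 19.5% lower over all genes tested (median 0.20). L3mbtl2, a chromatin-binding subunit, rose by 0.48 ± 0.0494 SE, Tfdp1, the partner of E2F factors, by 0.39 ± 0.0384 SE, and Yaf2 by 0.28 ± 0.0376 SE, while the methyltransferase Ehmt1 fell by 0.23 ± 0.0392 SE. After scaling on control rows Tfdp1 was at 0.197.

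A parallel arm of the network runs through MLX, which pairs with MXD1, MXD4 and MNT and with the glucose-sensing factors MLXIP and MLXIPL. Mlx rose by 0.34 ± 0.0401 SE (limma adjusted p = 1.1e-05), with signals of 9.62 to 9.72 in HD and 9.27 to 9.40 in LD. Mlxip and Mlxipl had log2 changes of -0.07 and 0.09 and did not pass the test, although Mlxipl, dim at 5.95 in HD and 5.86 in LD, was called higher under both other scalings (0.149 and 0.311). Txnip and Arrdc4, the arrestin-like genes that this arm activates, both fell. The log2 change of Txnip was -1.53 ± 0.089 SE (limma adjusted p = 3.3e-08) and that of Arrdc4 -0.52 ± 0.0623 SE (limma adjusted p = 1.2e-05, and -0.306 after scaling on control rows). Of the other factors with this kind of zipper, 2 of 7 tested rose (28.6%) and 1 fell, shares close to those over all genes tested (31.4% and 19.5%). Tfap4, itself a MYC target, rose by 0.20 and the lysosomal regulator Tfeb by 0.15 (0.274 after scaling on control rows), while the sterol regulator Srebf2 fell by 0.21.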

How the data were processed

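Total RNA of 10 samples (5 HD, 5 LD) was measured on 1-colour Affymetrix MTA 1.0 arrays. Per the submitters' processing notes RMA produced the deposited values, whose log2 scale was inferred from their range (1.49 to 14.3). No source used here names the software version, annotation or genome build. Of 72688 rows, 6732 were controls. The platform annotation named 1 symbol for 30604 rows and several for 2146, and gene IDs updated 827 symbols through RefSeq. Each gene took its brightest row on average, and entered the test where this average exceeded 5.24, the median of all row means.

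The test of HD against LD used limma 3.58.1 under R 4.3.3 (lmFit and eBayes, two-sided, Benjamini-Hochberg adjustment over 17800 genes, threshold 0.05). Errors are SD over arrays or moderated SE. The fit was tested on simulated data. Members, lists and tests were chosen with earlier results of these data known. Named were all members, the 3 called genes with the largest change in each list, called genes against their list's majority, and the 3 genes closest in profile to each of the 2 members that changed most; other genes were named after their values were seen. List genes without a single-symbol row were not analysed here. No batch label was given, so batches were not tested. Alternatives were a replicate block, quantile normalization, median centring, scaling on control rows, other filters on dim rows, row averaging, trended and robust variances, array weights, a 1.5-fold threshold and leaving out each array. One added after seeing the data joined rows that name a gene and its synonyms.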

Additional observations from a re-analysis of the deposited data

Results flagged for a closer look

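Single arrays stood apart from the other 4 of their group, by Dixon's criterion for 5 values, in 6 of the 108 gene and group sets looked at, close to the 1 in 20 that chance gives. Mycn read 5.83 on LD replicate 4, against 5.48 to 5.57 on the other LD arrays. Sap30 read 7.86 on HD replicate 4, against 8.02 to 8.07 on the other HD arrays. Usp36 read 8.54 on HD replicate 2, against 8.33 to 8.39, and Puf60 read 9.72 on the same array, against 9.53 to 9.58. Bop1 read 8.29 on LD replicate 5, against 8.13 to 8.16 on the other LD arrays. Srebf2 read 9.32 on HD replicate 5, against 9.44 to 9.48 on the other HD arrays.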

How the results depend on the processing

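Of 196 values of network genes under alternatives, 180 kept their direction and their side of the threshold, 9 gained a call, 6 lost one and 1 reversed. The reversed one was Mnt after quantile normalization (0.001). The counts of members called were 2 higher and 4 lower of 9; quantile normalization gave 4 higher, and a 1.5-fold threshold gave 0 higher and 1 lower. Leaving out 1 array gave 2 to 4 higher, with 4 of them without HD replicate 5 (Myc, Max, Mycn and Mxd3), and 4 lower each time. Over all genes, scaling on control rows gave 8785 higher genes in place of 5589, and the 1.5-fold threshold left 138 higher and 278 lower in place of 3467 lower. Leaving out 1 array gave 4704 to 5603 higher and 3063 to 3506 lower genes. Over the 9 other lists, 58 higher and 22 lower genes became 3 and 3 at 1.5-fold. Leaving out 1 array gave 56 to 59 higher and 19 to 23 lower there. These lists had 31 MYC-activated, 10 MYC-repressed, 10 MGA complex, 5 MLX arm and 7 other zipper genes tested. The lists of cofactors, protein turnover, Myc regulators and SIN3 genes had 12 each. Over all genes tested 31.4% were higher and 19.5% lower, and 2.34% were called at 1.5-fold. Fth1 reversed after scaling on control rows (-0.114). Sin3b lost its call without HD replicate 3, 4 or 5 or LD replicate 1, 2, 4 or 5 (largest limma adjusted p = 0.12), Sap30 without HD replicate 1, 3, 4 or 5 or LD replicate 1, 2 or 5 (0.11), and Usp28 without HD replicate 3 or 5 or LD replicate 1 or 5 (0.062). The cause of these shifts was not tested.

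The replicate numbers 1 to 5 were not treated as pairs: deviations of same-numbered arrays correlated at 0.186, -0.0909, -0.0358, 0.216 and -0.0249. With the replicate number as a block, Mycl lost its call (limma adjusted p = 0.052), the network counts stayed at 2 higher and 4 lower, and Mxi1 had a limma adjusted p of 1.3e-06. With the block, 4 MYC-repressed genes were higher in place of 2, as described with that list, and Sin3b lost its call (limma adjusted p = 0.067). Mycn, Mlxipl, Arrdc4, Pdgfrb, Col1a2 and Cdkn1c read near the negative control rows, which limits what their signals can show.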
